A study of Mus musculus with 8 samples.

Results

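The ribosome-bound RNA of Otp-lineage cells with intact Cic was described from the 4 Control libraries of a series of 8, chosen by their titles (Control replicates 1 to 4). The mice were C57BL/6 and carried Otp-Cre together with the ROSAfsTRAP allele, and no floxed Cic allele. The labels give hypothalamus and medial amygdala as the tissue and Otp+ cells as the fraction. The other 4 libraries, from mice that also carried floxed Cic, were not used here, and no contrast between genotypes was made. Age and sex are not given in the labels, and nothing there says whether each replicate was 1 animal, so the SD between replicates may be partly technical.

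Otp is a homeodomain transcription factor needed for the development of neuroendocrine neurons of the paraventricular, supraoptic and periventricular hypothalamus, which release vasopressin, oxytocin, somatostatin, thyrotropin-releasing hormone and corticotropin-releasing hormone. It acts there beside Sim1, a basic helix-loop-helix PAS factor that pairs with Arnt2 and lies upstream of the POU factor Pou3f2. In translating ribosome affinity purification (TRAP), Cre recombination switches on a tagged copy of the ribosomal protein L10a, and RNA is pulled down with the tagged ribosomes. Recombination marks every cell with a history of Otp-Cre activity, whether or not it still makes Otp, and the pull-down can carry RNA of unmarked cells. No input libraries were used here, so levels could not be given as enrichment over the tissue. In such bulk material fewer cells of a type and less RNA per cell cannot be told apart.

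The libraries held 38171319 to 57300362 reads counted to genes, and 17200 to 17707 of 24421 gene rows had at least 1 count. Levels are given as CPM (reads of a gene per 1000000 reads counted to genes, after scaling between the 4 libraries). Ratios between different genes are taken from CPM per kilobase of exon, whereas rankings by CPM or counts are not corrected for gene length. A mean of at least 1 CPM, taken here as detected, was reached by 13636 genes, and 5606 rows had no count in any library. Replicate 2 had the highest share of ribosomal RNA row Rn45s (11.5% of gene counts, against 8.46% to 10.3% elsewhere). Replicate 4 stood apart in the choroid plexus gene Ttr. Among genes averaging 5 CPM or more, 21 were in replicate 4 at least 2-fold above the mean of the other 3 libraries. The same count was 11 in replicate 1, 5 in replicate 2 and 3 in replicate 3. Results that rest on these genes are given library by library. Strand was not marked, and several of the genes named here share sequence with an annotated gene of the other strand. Among them are Gnas, Syp, Slc1a2, Glul, Pcsk1n, Arnt2, Ebf3, Zic1, Prox1, Six3, Penk, Nos1 and Atxn1. The strand setting and annotation used for counting are not given, so how reads of such overlaps were counted is not known.

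Neuronal genes were among the most abundant, beside general ones such as Eef1a1, Gapdh and Atp5b. The 2 rows with the most counts were Rn45s and Lars2, a mitochondrial leucyl-tRNA synthetase gene. Lars2 had 1.09%, 1.58%, 1.35% and 1.10% of gene counts in replicates 1 to 4, highest in replicate 2, as Rn45s was. Whether all of these were reads of Lars2 mRNA was not tested. Leaving these rows aside, the row with the most counts was Snap25, a core protein of synaptic vesicle fusion. Snap25 had 10282, 10293, 9900 and 12185 CPM in replicates 1 to 4, with replicate 4 above the other 3. The calcium sensors Calm2 (mean 5864 CPM) and Vsnl1 (4192), the G protein subunit gene Gnas (3530) and the 14-3-3 gene Ywhaz (2987) were also among the rows with the most counts. Ordered per kilobase instead, Calm2 led with 3997 ± 585 CPM per kb (mean ± SD, n = 4), ahead of Vsnl1 (2143 ± 187), Pcp4 (1886 ± 490.2) and Snap25 (1570 ± 152), and Calm2 lay above Snap25 in 4 of 4 libraries with a ratio of 2.54 ± 0.184. Sst, the somatostatin precursor and the only one of the 52 neuropeptide genes among the 25 highest per kilobase, had 709 ± 106 CPM per kb. The 25 genes with the most counts took 17.4% ± 1.33 of gene counts, much of it Rn45s, since without that row the share was 8.64%.

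Some of these top genes were even between the libraries and others were not. Rtn1, an endoplasmic reticulum protein of neurons, ranged from 2727 to 2844 CPM, with a coefficient of variation (CV, the SD as a percentage of the mean) of 1.97%, and Gnas had a CV of 3.6%. Pcp4, a calmodulin-binding peptide gene, had 2261, 1577, 1438 and 2462 CPM, so that replicates 1 and 4 both exceeded replicates 2 and 3. Of 16 pan-neuronal genes, all 16 were detected, and their summed level was 16318, 16640, 16358 and 18500 CPM. The nuclear neuronal marker gene Rbfox3 had 198 ± 11.6 CPM, and Syp, a synaptic vesicle membrane protein gene, had 1253 ± 126 CPM.

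The gene of the tagged protein itself was unremarkable among its peers. Rpl10a had 516, 600.5, 593 and 538.5 CPM, or 231 ± 17.0 CPM per kb, which ranked it 41 of 86 ribosomal protein genes, whose median was 204 CPM per kb. Of the 50-base windows of its transcript, 77.7% also occur in transcripts of other genes, chiefly the pseudogene Rpl10a-ps1, so its count leaves out reads with no unique place. Whether any reads of the tagged copy were counted to this row was not tested.

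The 6 transcription factors of the Otp lineage were all detected in all 4 libraries, at levels that ranged widely from gene to gene. Arnt2, the partner of Sim1 that many neurons also express, was the highest at 200, 194, 231 and 175 CPM. Sim1 had 14.2, 13.0, 19.1 and 11.3 CPM, and Otp itself had 3.24, 5.08, 3.27 and 2.30 CPM. Replicate 3 was highest for Sim1 and replicate 2 for Otp, and replicate 4 was lowest for each of the 6 factors. Among the 11004 genes with a mean of at least 5 CPM, the share for which a library was the lowest was 20.5% for replicate 1, 28.0% for replicate 2, 25.1% for replicate 3 and 26.4% for replicate 4. The share for which it was the highest was 19.5%, 28.9%, 26.3% and 25.3%. Nhlh2, a basic helix-loop-helix factor of the hypothalamus, had 14.6 ± 1.73 CPM, Pou3f2 had 13.9 ± 1.53, and Sim2, the paralog of Sim1, had 2.999 ± 1.26.

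Per kilobase, Arnt2 (26.0 ± 3.003 CPM per kb) lay above Sim1 (1.67 ± 0.389) in 4 of 4 libraries by a ratio of 15.9 ± 1.67. Sim1 and Otp (1.21 ± 0.404) could not be put in order, since Sim1 was the higher in 3 of 4 libraries with ratios from 0.857 to 1.96. Both lay under the median of the detected genes with a known exon length, 4.69 CPM per kb over 13567 genes. The marker genes chosen for the lineage were present in every library. Levels were low for Sim1 and Otp and, as given below, high for the peptides Avp, Oxt and Sst. Without input libraries, their presence does not show which cells made this RNA.

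Factors of other hypothalamic regions were present beside them. Of 30 such genes, 27 were detected, 14 of them at a mean of at least 10 CPM. Prox1, a homeobox factor also expressed in the thalamus and dentate gyrus, had 48.7 ± 5.91 CPM, and Six3 had 39.1 ± 7.90. Nkx2-1, which patterns the ventral hypothalamus, had 24.2, 33.0, 38.4 and 15.9 CPM, and Fezf1, a factor of the ventromedial nucleus, had 27.7, 38.8, 34.0 and 18.2 CPM. In each of these last genes replicate 4 was the lowest library. Nkx2-1 exceeded Sim1 per kilobase in 4 of 4 libraries, by a ratio of 5.80 ± 1.45.

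Replicate 4 was the lowest library for 12 of the 27 detected members of this list, beside the 26.4% of genes given above, among them Foxb1, a factor of the mammillary region. Foxb1 had 9.82, 11.8, 16.5 and 6.61 CPM. Nr5a1, the defining factor of the ventromedial nucleus, had 4.18, 4.01, 3.45 and 1.40 CPM. The summed level of the list nevertheless differed little between the libraries, from 307 to 350.1 CPM.

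Of 12 factors tied to medial amygdala lineages, 10 were detected, and Dbx1, an early progenitor factor, had no count in any library. Ebf3 (87.1 ± 18.6 CPM), Zic1 (50.4 ± 20.6), Foxp2 (46.8 ± 4.66) and Tshz1 (37.9 ± 3.85) had the most counts. Lhx9 had 10.0, 3.48, 5.22 and 14.7 CPM and Meis2 had 39.6, 28.2, 25.9 and 57.7 CPM. In both, replicate 4 was the highest, and it was so for 6 of the 10 detected members, beside 25.3% of genes at 5 CPM or more. It was the lowest for 1 member, Ebf3, which had 76.3, 94.1, 109.7 and 68.2 CPM. Replicate 2 was the lowest for 6 of the 10, beside 28.0%.

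Of 12 factors typical of cortex, hippocampus or thalamus, 11 were detected, replicate 4 was highest for 9 of these and replicate 2 was lowest for 8, beside 25.3% and 28.0% of genes at 5 CPM or more. Tcf7l2, a Wnt pathway factor strong in thalamic neurons, had 350.1, 221, 239 and 416.5 CPM. Neurod6, a factor of pallial excitatory neurons, had 4.92, 4.56, 6.33 and 17.5 CPM, and Gbx2, a factor of the developing thalamus, had 9.82, 3.10, 4.01 and 12.5 CPM. The defining pallial factor Emx1 lay at 0.360 ± 0.369 CPM. Summed, the list gave 502, 337, 363 and 603 CPM, and without Tcf7l2 its mean was 144.5 CPM. How much tissue beside the labelled regions each library contained was not tested.

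Hindbrain and spinal identity genes were near the floor. Of 23 Hox genes none reached a mean of 1 CPM and 13 had no count in any library. The list summed to 0.343 to 0.843 CPM, where 3 counts correspond to 0.0514 to 0.0791 CPM.

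**Figure D1:**
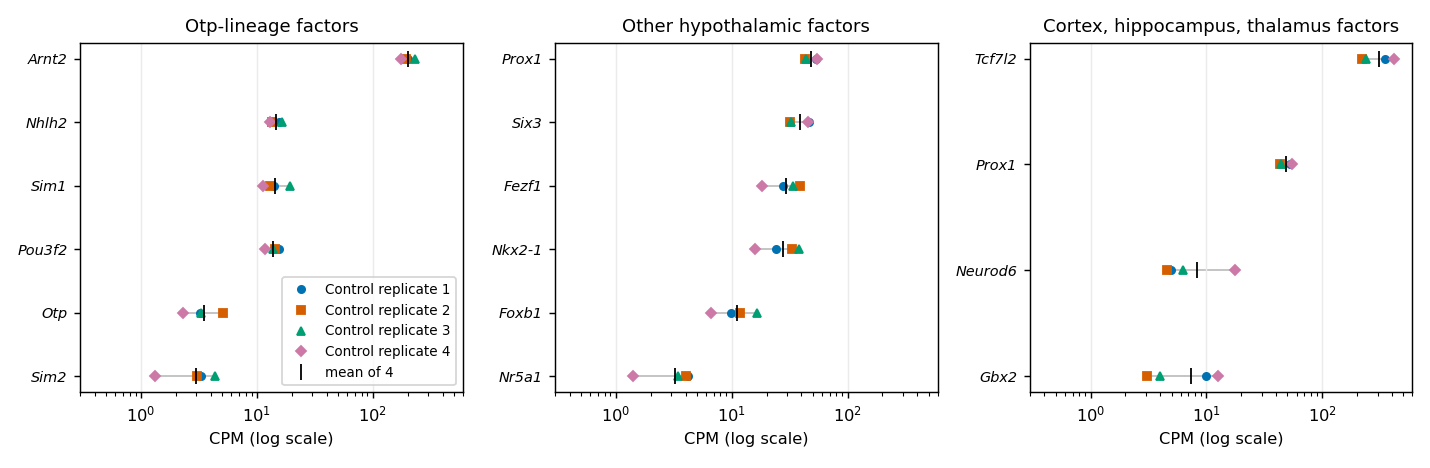
Level of the transcription factors named in the text with a mean of at least 1 CPM (x axis, CPM, log scale) in the 4 Control libraries (symbols) with the mean of the 4 (bar), for the Otp lineage, other hypothalamic regions, and cortex, hippocampus and thalamus. Replicate 4 is the lowest symbol for the 6 Otp-lineage factors and the highest for the 4 factors plotted in the last group.

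Avp and Oxt, the precursors of vasopressin and oxytocin, are neighbours that arose by duplication, and each encodes its hormone together with a neurophysin carrier. On GRCm38, Avp lies at chr2:130580620-130582554 on the minus strand and Oxt at chr2:130576173-130577054 on the plus strand. Their transcripts share an identical coding stretch of 127 bases across exons 1 and 2, and reads that lie wholly inside it have no unique place. The stretch is shown because both genes' counts leave such reads out. It is printed with 20 bases on each side from the GENCODE transcripts, 5′ to 3′ in the sense of each gene, with the shared bases in capitals.
Avp: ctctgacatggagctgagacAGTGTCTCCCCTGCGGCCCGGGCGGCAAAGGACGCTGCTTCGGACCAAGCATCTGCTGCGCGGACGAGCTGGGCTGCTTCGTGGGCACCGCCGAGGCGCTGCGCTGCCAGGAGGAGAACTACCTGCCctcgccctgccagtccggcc
Oxt: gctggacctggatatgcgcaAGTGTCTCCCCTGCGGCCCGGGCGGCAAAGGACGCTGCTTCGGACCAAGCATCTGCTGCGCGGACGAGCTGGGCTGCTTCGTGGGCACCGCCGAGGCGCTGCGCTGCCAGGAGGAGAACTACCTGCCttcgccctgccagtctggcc
Of the 50-base windows of each transcript, 14.8% in Avp and 16.0% in Oxt occur in the other gene. Read length is not stated in the labels, so the number of reads left out was not measured. No such window was shared by Sst, Hcrt, Trh or Crh, whereas 48.4% of those of Pmch were shared with Parpbp, which overlaps it on the other strand.

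The summed level of the neuropeptide genes rested on a few abundant members, with Sst alone at 19.2% of it, while the median member had 3.25 CPM. Of 52 genes, 32 were detected, beside 13636 of all 24421 gene rows. Among the 52, 29 had at least 1 CPM in every library and 9 had a mean of at least 100 CPM. Their summed level was 2717, 2698, 2670 and 2586 CPM, a CV of 2.17%, and the median CV of the detected members was 20.2%. A sum over many genes varies less than its members where these move in different directions, so the CV of the sum does not describe the single peptides.

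The marker peptides led the group per kilobase. Sst had 542, 471, 429.8 and 603 CPM, and Avp had 228, 275, 252 and 228 CPM. Oxt had 190, 189, 215 and 163 CPM. Replicates 1 and 4 had the highest Sst, replicate 2 the highest Avp and replicate 3 the highest Oxt.

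Per kilobase the order was Sst (709 ± 106), Avp (426 ± 38.9), Oxt (353 ± 39.5) and then Hcrt (347 ± 57.0). The lowest library for Sst, 596 CPM per kb, lay above the highest for Avp, 476. The ranges of Avp and Oxt overlapped, though within each library Avp was the higher, by a ratio of 1.22 ± 0.132 and between 1.09 and 1.35. Oxt and Hcrt changed places between libraries. Of 31 neighbouring pairs in the order of the detected peptides, 4 had ranges that did not overlap.

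Peptides of the lateral hypothalamus followed close behind, with Pmch at 284 ± 72.2 CPM per kb and Hcrt, as given, near Oxt. Hcrt, the orexin precursor, had 269, 286, 289 and 197.5 CPM, and Pmch, the precursor of melanin-concentrating hormone, had 214, 242, 258 and 136 CPM. Cartpt, a satiety peptide gene of several hypothalamic nuclei, had 206, 235, 224 and 244 CPM. Replicate 4 was the lowest library for Hcrt and Pmch and the highest for Cartpt.

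Further peptide genes, some of them of the arcuate nucleus and of interneurons, lay level with Cartpt or below it per kilobase. Cck, the cholecystokinin gene that pallial and thalamic neurons also express, had 275, 142, 159 and 348 CPM, with replicates 1 and 4 each above 2 and 3. Tac1, the substance P precursor, had 177, 189.5, 181 and 114 CPM. Penk, the enkephalin precursor, was steadier at 145 ± 8.63 CPM, and Adcyap1, the gene of the stress peptide PACAP, had 78.2, 100.1, 108 and 57.9 CPM.

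Pomc, the melanocortin precursor, had 37.4, 49.9, 39.9 and 15.4 CPM. Its arcuate counterpart Agrp was lower per kilobase in 4 of 4 libraries, with an Agrp to Pomc ratio of 0.1504 ± 0.0785. Gal had 33.5, 47.5, 34.2 and 19.9 CPM, and Npy 32.7, 27.0, 21.1 and 32.7 CPM. Replicate 4 was the lowest of the 4 for Pomc, Gal, Tac1 and Adcyap1, as it was for 16 of the 32 detected peptides, beside 26.4% of genes at 5 CPM or more.

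The releasing hormones of the paraventricular and arcuate nuclei were unequal. Trh had 30.4, 29.3, 39.2 and 27.5 CPM and Ghrh, the growth hormone releasing factor, 33.9, 43.8, 38.5 and 32.3 CPM. Crh had 0.977, 2.10, 2.45 and 1.87 CPM, from 57, 88, 93 and 83 reads. Trh therefore exceeded Crh per kilobase by a ratio of 18.1 ± 7.80 and Avp exceeded it by 337 ± 134, each in 4 of 4 libraries. Gnrh1 (0.290 ± 0.0834 CPM) and Kiss1 (0.273 ± 0.159) were under 1 CPM, and Ucn2 had no count in any library.

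A peptide of the medial amygdala and perifornical area was the most even of the group. Ucn3, a ligand of the type 2 corticotropin-releasing hormone receptor, had 14.4, 13.6, 13.6 and 13.8 CPM, a CV of 2.79%, where genes of 5 to 20 CPM had a median CV of 14.2%. At the other extreme stood Rln3, the relaxin-3 gene best known from the nucleus incertus of the brainstem, with 0.669, 0.763, 0.949 and 9.52 CPM. Its mean rested on replicate 4, with 422 reads against 32 to 39 in the other libraries.

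**Figure D2:**
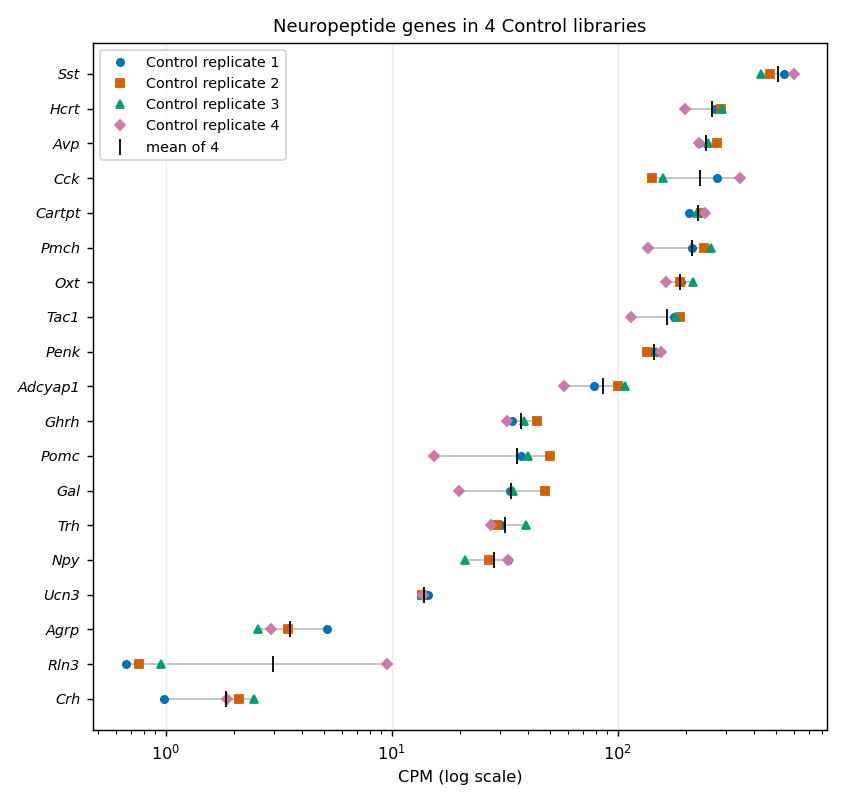
Level of the neuropeptide genes named in the text with a mean of at least 1 CPM (x axis, CPM, log scale) in each Control library (symbols) with the mean of the 4 (bar). Sst has the highest mean, Ucn3 has the tightest points, and Rln3 is set apart by replicate 4 at 9.52 CPM.

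The machinery that makes and stores peptides was detected in full, 20 of 20 genes, 11 of them averaging over 100 CPM, and summed to 4177 to 4411 CPM. Cpe, the carboxypeptidase that trims peptide precursors, had 1255 ± 99.1 CPM and made up 29.3% of the sum. The granule proteins Scg2 (519 ± 69.5 CPM) and Chgb (353 ± 19.7) and the convertase inhibitor gene Pcsk1n (461 ± 43.2) followed by counts. Of the prohormone convertases, Pcsk2 (17.3 ± 2.39 CPM per kb) lay above Pcsk1 (3.27 ± 0.928). Pcsk1 had 17.5, 19.2, 24.6 and 12.01 CPM, highest in replicate 3 and lowest in replicate 4. Pam, which amidates vasopressin and oxytocin among other peptides, had 138 ± 17.2 CPM.

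Of 73 neuropeptide receptor genes, 52 were detected and 48 had at least 1 CPM in every library. Replicate 3 was the highest library for 31 of the 52 and replicate 4 the lowest for 22, beside 26.3% and 26.4% of genes at 5 CPM or more. The summed level ran from 705 in replicate 4 to 878 CPM in replicate 3. Adcyap1r1, the PACAP receptor, had 149, 152, 164 and 116 CPM, and was the only receptor of the list with a mean above 100 CPM. Ntsr2, a neurotensin receptor that astrocytes also express, had 113, 89.7, 103 and 87.2 CPM. Per kilobase Ntsr2 (31.5 ± 3.85) exceeded Adcyap1r1 (22.0 ± 3.13) with no overlap of their ranges.

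The receptors for the marker peptides were present at modest levels. Oxtr, the oxytocin receptor, was even, at 15.2, 15.9, 16.3 and 15.2 CPM (CV 3.4%). Avpr1a, the type 1a vasopressin receptor, had 4.73, 6.85, 9.30 and 2.98 CPM. Oxtr was the higher per kilobase in 3 of 4 libraries, by ratios from 0.976 to 2.85, and the order between them was not fixed. Avpr1b and Avpr2 had means of 0.0829 and 0.0179 CPM, with counts in 3 and 1 of the 4 libraries.

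Among somatostatin receptors, Sstr1 (8.95 ± 0.820 CPM per kb), Sstr2 (5.03 ± 1.04) and Sstr3 (3.97 ± 0.352) were the highest. Crhr1, the type 1 receptor of corticotropin-releasing hormone, had 8.35 ± 0.687 CPM, and per kilobase exceeded Crhr2 by a ratio of 18.6 ± 6.24, in 4 of 4 libraries. Trhr, which binds thyrotropin-releasing hormone, had 14.2, 12.1, 17.6 and 10.4 CPM. Ghrhr had no count in any library.

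Of the receptors of feeding peptides, Mchr1, the receptor of melanin-concentrating hormone, had 16.1 ± 3.84 CPM, and Hcrtr2 and Hcrtr1, the orexin receptors, had 7.61 ± 1.68 and 3.62 ± 0.346. Per kilobase Mchr1 was 5.95 ± 0.508 times Hcrtr2, in 4 of 4 libraries, and the orexin receptors could not be put in order (Hcrtr2 to Hcrtr1 0.597 to 1.18). The melanocortin receptors Mc3r (4.80 ± 1.33 CPM) and Mc4r (2.79 ± 0.958) were low. Oprl1, the nociceptin receptor, was the leading opioid family member at 15.4 ± 1.69 CPM per kb, against 2.12 ± 0.482 for Oprm1, 2.10 ± 0.459 for Oprd1 and 1.73 ± 0.391 for Oprk1.

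Of 13 hormone receptor genes 12 were detected, with a median CV of 13.2%. Against the median CV of genes of like abundance, 7 of these 12 and 36 of the 52 detected peptide receptors lay higher. Over all detected genes, as many lie above that median as below it by construction. Thra, the alpha thyroid hormone receptor, had 247, 299, 261 and 238 CPM, and per kilobase lay above Thrb by a ratio of 9.23 ± 1.598 in 4 of 4 libraries. Thra overlaps the clock gene Nr1d1 on the opposite strand, and how reads of the overlap were counted is not known. Nr3c1, the glucocorticoid receptor gene, had 53.4, 43.0, 61.7 and 58.3 CPM, and exceeded the mineralocorticoid receptor gene Nr3c2 by 2.32 ± 0.440 per kilobase. Of the sex steroid receptors, Pgr had 46.6 ± 3.68 CPM and Esr1 had 8.14, 7.47, 9.04 and 4.13 CPM, and per kilobase Pgr was the higher in 4 of 4 libraries, by a ratio of 11.5 ± 5.42. Lepr, the leptin receptor gene, had 2.67 ± 0.648 CPM, and Esr2 was under 1 CPM.

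The leading genes of GABA and glutamate neurons could not be put in order. Gad2, which makes GABA, had 381, 292, 399.6 and 368 CPM, and Slc17a6, which encodes the vesicular glutamate transporter VGLUT2, had 319, 297, 409.5 and 288 CPM. Replicate 2 was the lowest library for Gad2, replicate 4 for Slc17a6, and replicate 3 was the highest for both. The Gad2 to Slc17a6 ratio per kilobase was 1.02 ± 0.139 and lay above 1 in 2 of 4 libraries. It was 0.798 when the longest transcript replaced the union of exons as the length.

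The GABA list gave no uniform ratio to glutamate genes, since its members differed. Gad1, the other GABA-synthesizing enzyme gene, was 5.38 ± 0.542 times lower per kilobase than Gad2 with exon union lengths, and 2.60 times with the longest transcripts. Slc32a1, the vesicular GABA transporter gene, had 43.1, 36.7, 36.6 and 45.6 CPM, a ratio of 0.244 ± 0.0552 to Slc17a6 per kilobase. All 6 genes of the GABA list were detected, with a summed level of 1060 to 1379 CPM, and all 6 of the glutamate list, with 829 to 1079.

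The forebrain glutamate transporter gene Slc17a7 (VGLUT1), typical of cortex, hippocampus and some amygdala and thalamic neurons, had 76.1, 45.3, 52.4 and 119 CPM. Slc17a6 was above Slc17a7 per kilobase in each library, but by ratios that ran from 2.42 in replicate 4 to 7.81 in replicate 3. Slc17a8 (VGLUT3) had 2.63 ± 0.511 CPM. Slc17a7 was highest in replicate 4, as were Neurod6 and Tcf7l2, and their part in each other's levels was not tested.

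Monoamine genes fell into a detected and an undetected set. Th, the first enzyme of dopamine synthesis, had 25.1, 24.4, 22.3 and 40.4 CPM. The dopamine transporter gene Slc6a3 had 16.8, 9.21, 12.6 and 37.4 CPM, and in both genes replicate 4 exceeded the other 3. Ddc, the decarboxylase gene of dopamine and serotonin synthesis, was even (22.4 ± 1.28 CPM). Hdc, the histamine-synthesizing enzyme gene of the tuberomammillary nucleus, had 9.98, 8.85, 18.6 and 8.24 CPM, with replicate 3 the highest.

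The defining genes of noradrenergic and serotonergic neurons were under 1 CPM, at 0.300 ± 0.131 CPM for Dbh and 0.209 ± 0.157 for Tph2, and the noradrenaline transporter gene Slc6a2 had no count in any library. Chat, the acetylcholine-synthesizing enzyme gene, had 0.525 ± 0.335 CPM. Nos1, the neuronal nitric oxide synthase found in many magnocellular neurons, had 87.1, 92.1, 104 and 75.6 CPM. The glycine transporter gene Slc6a5 of hindbrain neurons was at 0.117 ± 0.0515 CPM.

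**Figure D3:**
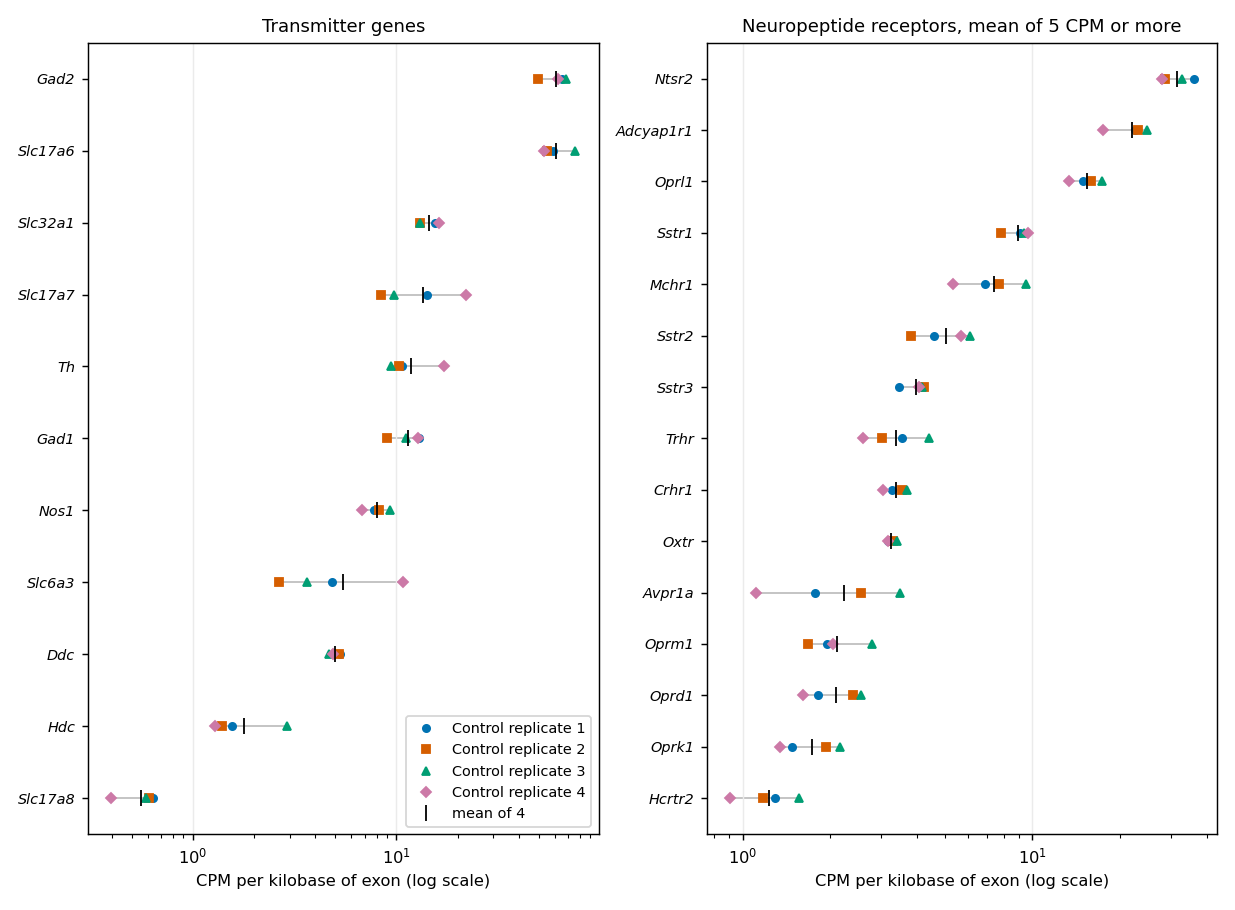
Level per kilobase of exon (x axis, CPM per kb, log scale) of the transmitter genes named in the text with a mean of at least 1 CPM and of the neuropeptide receptors named there with a mean of at least 5 CPM, in each Control library (symbols) with the mean of the 4 (bar). Gad2 (61.3) and Slc17a6 (60.8) lie side by side at the top, while Slc17a7 and Slc6a3 are stretched to the right by replicate 4.

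Of 15 GABA-A receptor subunits, 14 were detected, and the cerebellar subunit gene Gabra6 had no count in any library. Gabra5 had 43.0 ± 0.952 CPM per kb and was even between the libraries, with a CV of 2.21%, and Gabra3 had 18.8 ± 1.73 CPM per kb. Gabrq, which encodes the theta subunit found in hypothalamus and monoamine groups, had 49.3, 44.9, 57.5 and 30.5 CPM. Gabra4 had 128, 70.5, 100.4 and 140.5 CPM and Gabrd 23.2, 11.1, 14.5 and 27.2 CPM, each highest in replicate 4 and lowest in replicate 2. Replicate 3 was the highest library for 11 of the 14, beside 26.3% of genes at 5 CPM or more.

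Of 16 ionotropic glutamate receptor subunits 15 were detected, led per kilobase by the AMPA receptor gene Gria1 (25.6 ± 1.13). Replicate 2 was the lowest library for 11 of them, beside 28.0% of genes at 5 CPM or more. Of 36 amine and acetylcholine receptors in the tables, 31 were detected. The nicotinic subunit gene Chrna4 (147 ± 19.4 CPM), the histamine autoreceptor gene Hrh3 (93.6 ± 5.04) and the serotonin receptor gene Htr2c (90.0 ± 12.6) had the most counts. Htr7 was among the most even, at 31.4, 33.4, 32.4 and 32.2 CPM.

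Markers of oligodendrocytes and astrocytes, cell types outside the neuronal Otp lineage, were strong in every library. Of 14 oligodendrocyte markers all 14 had a mean above 10 CPM, and their summed level was 3586, 2836, 3167 and 3544 CPM. Mbp, which encodes myelin basic protein, had 980.3, 736, 743 and 959 CPM, and Mal, a myelin vesicle protein gene, 385, 348, 316.5 and 399.8 CPM. Replicate 2 was the lowest library for 12 of the 14, beside the same 28.0%. None of the defining markers was at 0.

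All 14 astrocyte markers were detected, with a summed level of 2528, 1990, 2284 and 2011 CPM. Slc1a2, the main glutamate transporter gene of astrocytes, had 774, 469.5, 641.5 and 433 CPM, whereas Aldoc (369 ± 22.6 CPM) and S100b (192 ± 5.10) were even. Gfap, the astrocyte intermediate filament gene, had 103, 133, 78.0 and 98.0 CPM. Some of these genes, Glul and Slc1a2 among them, are also expressed by certain neurons. The list of 9 oligodendrocyte precursor markers, all detected, summed to 204 to 243 CPM, 42.15% of it from its leading gene. Pdgfra was low, at 4.23 ± 1.19 CPM or 0.422 CPM per kb. Which cells made the RNA of this list was not tested.

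Microglial and vascular markers were low and differed between libraries. Of 14 microglial markers 13 were detected, 1 of them above 10 CPM, and the sum was 88.7, 33.1, 38.5 and 90.3 CPM. C1qb, a complement gene, had 9.77, 2.72, 1.24 and 11.8 CPM, and Cx3cr1 5.37, 1.36, 1.45 and 5.01 CPM, with replicates 1 and 4 each above 2 and 3. Of 14 endothelial and mural markers 10 were detected, and the sum was 58.5, 19.9, 14.9 and 31.4 CPM. The endothelial gene Cldn5 had 0.377, 1.31, 0.237 and 0.496 CPM, and Rgs5, a pericyte gene, 12, 2.27, 2.32 and 7.94 CPM. None of the 28 markers was at 0 in all 4 libraries.

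Ependymal and tanycyte markers were detected for 9 of 10 genes, with sums from 58.2 to 79.3 CPM. Choroid plexus and meningeal markers were detected for 7 of 10, with sums of 65.9, 92.4, 23.8 and 593 CPM, and this list was decided by 1 gene and 1 library. Ttr, the transthyretin gene and chief secretory product of the choroid plexus, had 3.84, 60.9, 4.19 and 523 CPM. Without replicate 4 the mean of the list was 60.7 CPM in place of 194. The choroid water channel gene Aqp1 lay at 0.124 ± 0.1495 CPM and Folr1 at 0.470 ± 0.312, and Kl, a further choroid gene, had 3.99, 7.75, 5.19 and 11.04 CPM, with replicate 4 the highest.

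Of 9 anterior pituitary markers 1 was detected, Cga, at 6.19, 1.34, 0 and 2.48 CPM, while Prl and Pou1f1 had no count in any library and Gh had 1, 0, 2 and 2 reads. The haemoglobin genes were listed at 0 throughout. Of the 50-base windows of Hba-a1, Hba-a2, Hbb-bs and Hbb-bt, 58.3% to 86.9% are shared with a near-identical copy. The part of this in the zeros was not tested. Alas2, a haem synthesis gene of red cells, had 0.666 ± 0.0495 CPM.

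**Figure D4:**
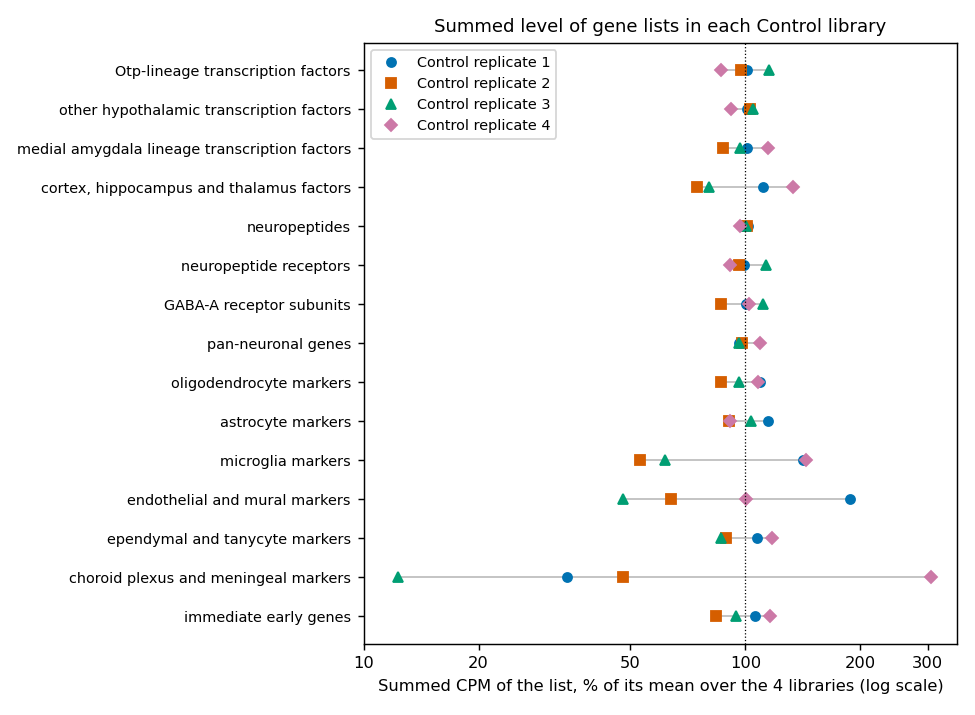
Summed CPM of 15 gene lists in each Control library (symbols), as a percentage of the list's mean over the 4 (x axis, log scale, dotted line at the mean). Neuropeptides lie within a few percent of their mean, whereas microglial, endothelial and mural, and choroid plexus lists are the most spread.

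The transcriptional repressor gene Cic, intact in these mice, and its partners were present throughout. Cic had 103, 73.4, 101 and 101 CPM, with replicate 2 the lowest. Atxn1, the ataxin-1 gene whose protein binds Cic, had 163, 164, 175 and 178 CPM, and the paralog Atxn1l had 37.7 ± 1.12 CPM (CV 2.98%). Per kilobase the means were 12.2 ± 0.532 for Atxn1, 9.19 ± 1.38 for Cic and 5.004 ± 0.149 for Atxn1l, with ranges that did not overlap.

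All 19 immediate early genes, which are induced by neuronal activity, were detected, at sums of 529.5, 419, 473.5 and 579.9 CPM. Egr1, an activity-induced zinc finger gene, had 165, 81.5, 126 and 161 CPM, and Fos had 16.1, 8.78, 13.2 and 13.0 CPM, each lowest in replicate 2. Npas4, one of the most strictly activity-dependent, had 2.03 ± 0.801 CPM.

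All 18 clock genes were detected. Per1 had 64.2, 34.1, 42.0 and 54.9 CPM and Per2 18.1, 12.2, 16.8 and 12.9 CPM. Dbp, a strongly rhythmic output gene, was low and even at 6.42 ± 0.811 CPM. Of 10 glucocorticoid-responsive genes, Sgk1 ranged most in CPM terms among those named, from 32.6 in replicate 2 to 84.9 in replicate 4, while Fkbp5 (14.8 ± 1.62 CPM) and Tsc22d3 (117 ± 3.55) were even. Sampling times are not given in the labels.

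Imprinted genes, many of which are prominent in the hypothalamus, were detected for 19 of 22 and summed to 6478 to 6887 CPM, 53.2% of it Gnas. Impact (504 ± 35.0 CPM), Peg13 (444 ± 19.6), Nnat (432 ± 57.3), Peg3 (425 ± 76.2), Dlk1 (253 ± 29.9) and Ndn (253 ± 29.6) were all above 100 CPM. Magel2, a gene of the Prader-Willi region, had 17.5, 18.3, 18.2 and 10.4 CPM. Replicate 3 was the highest library for 10 of the 19 and replicate 4 the lowest for 12, beside 26.3% and 26.4% of genes at 5 CPM or more. H19 had 0, 0, 1 and 1 reads.

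The Y-linked genes Ddx3y, Eif2s3y, Kdm5d and Uty were present in all 4 libraries, at 11.4 to 36.5 CPM, and Xist lay between 1.22 and 1.83 CPM. Each library thus held RNA of male tissue, and whether any also held RNA of female tissue was not tested. The long noncoding RNA Malat1, mainly nuclear, had 201, 309, 167.5 and 288 CPM, and Meg3 had 203, 191, 145 and 164 CPM. Hsp90aa1 (546 ± 50.2 CPM) and Hspa8 (1234 ± 109) led the heat shock genes, while the inducible Hspa1a had 1.53 ± 0.606 CPM.

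Between the libraries, the detected genes had a median CV of 11.9%, with quartiles of 7.87% and 18.9%. The CV was under 10% for 5246 genes (38.5%) and over 50% for 320 (2.35%). It fell with abundance, from a median of 27.2% at 1 to 5 CPM to 14.2% at 5 to 20, 9.62% at 20 to 100 and 8.09% at 100 to 1000 CPM. Counting alone would give a median CV of 4.49% at 5 to 20 CPM and 1.12% at 100 to 1000 CPM. The common biological coefficient of variation estimated by edgeR was 17.0%.

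Set against these figures, the marker genes were ordinary or somewhat uneven. Avp (CV 9.12%) and Oxt (11.2%) lay slightly above, and Sst (14.99%) further above, the median of genes at 100 to 1000 CPM. Sim1 (23.3%) exceeded the median at 5 to 20 CPM and Otp (33.5%) that at 1 to 5 CPM. Of the 32 detected peptides 25 exceeded the median of their abundance class, as did 20 of 27 hypothalamic factors, 13 of 13 microglial markers and 7 of 16 pan-neuronal genes. By construction, as many of all detected genes lie above the median of their class as below it.

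Among the genes with a mean of 5 CPM or more, Ttr had the largest CV (170%). After it came H2-T10, a class I histocompatibility gene, with 19.1, 1.43, 0.949 and 1.47 CPM. Of its 50-base windows 42.9% are shared with transcripts of other genes, chiefly H2-T22. Lyz2, a myeloid lysozyme gene, had 10.9, 1.72, 1.42 and 8.96 CPM, and Igf2, an imprinted growth factor gene made by meninges and choroid plexus, 34.3, 9.21, 3.98 and 33.0 CPM. Myoc, a secreted glycoprotein gene, had 7.97, 23.1, 4.75 and 5.84 CPM, with replicate 2 highest. Ahnak had 15.3, 11.6, 2.95 and 3.14 CPM, and Wdfy1 had 12.8, 10.97, 15.8 and 34.9 CPM. Of 11004 genes at 5 CPM or more, 29 had a CV over 50%.

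Compared pair by pair, the libraries differed by a median of 0.14 to 0.18 on the log2 scale across these genes. Replicates 1 and 4 differed the least (0.138) and replicates 2 and 4 the most (0.180), with 45 and 130 genes more than 2-fold apart. Replicate 2 had 36 genes at or below 0.5 of the mean of the other 3 libraries, replicate 3 had 26, replicate 4 had 19 and replicate 1 had 10.

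**Figure D5:**
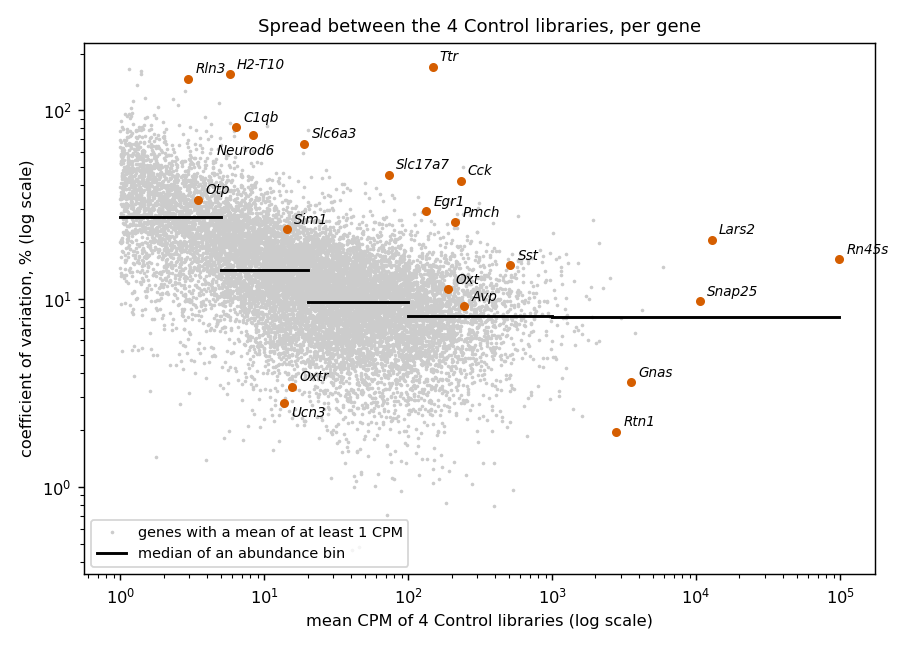
Coefficient of variation between the 4 Control libraries (y axis, %, log scale) against mean CPM (x axis, log scale) for 13636 detected genes (grey), with named genes in orange and the median of each abundance class as a black line. Ttr, H2-T10 and Rln3 lie far above the lines, and Rtn1, Gnas, Ucn3 and Oxtr lie below them.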

How the data were processed

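RNA bound to tagged ribosomes was measured in 4 Control libraries. Each library has 1 deposited table of raw counts by gene symbol. Per the submitters' processing notes, the authors used TopHat2 2.0.9, HTSeq and the mm10 build. Not given in the sources used here are the HTSeq version, the gene annotation, the strand setting, the read length and the use made of DESeq2. The cDNA kit does not mark strand, per the labels' protocols, so reads of overlapping genes on the 2 strands are not separable. RNA was amplified without molecular identifiers, so counting error alone understates the error. The 92 spike-in rows and 5 HTSeq counter rows were left out of the totals. Spike-ins amounted to 0.299% to 0.522% of gene counts, and 63.3% to 74.2% of all records were alignments that were not unique and were counted to no gene.

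CPM were computed with edgeR 4.0.16 in R 4.3.3 with TMM factors (0.971 to 1.02) over the 4 libraries. Exon lengths came from the union of exons in GENCODE vM21 on GRCm38, for 24062 of 24421 symbols. The spread is the SD over 4 libraries as a percentage of the mean. A simulation with known spreads was used to check that step. With 1 group there was no contrast and no test was run. Levels were recomputed with total counts, with DESeq2 1.42.0 size factors, without Rn45s and without each replicate.

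The members and the 35 gene lists (553 genes, of which 552 were in the tables) were chosen with earlier results of these data known. The genes that could be named were the marker genes, Cic, the 25 genes with the most counts, list members, and the 20 genes with the largest CV at 5 CPM or more. Other genes, the gene pairs given as ratios, the ribosomal protein set and the genes checked for shared 50-base windows were chosen after their values were seen. A few genes that count in the lists and totals are not reported here by name.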

Additional observations from a re-analysis of the deposited data

Results flagged for a closer look

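Of 213 values checked (the CPM of each named gene, the summed level of each list and the library figures), 15 (7.04%) had 1 library whose gap to the nearest of the other 3 made up most of the whole range (above Dixon's 95% critical value). Chance flags about 1 in 20 groups, and of all detected genes 762 (5.59%) were past the same value. The checked values include genes named for their large spread, so the share among them is not a result about them. In 10 of the 15 the library apart was replicate 4, in 2 each it was replicate 2 and replicate 1, and in 1 it was replicate 3. Over the 11004 genes at 5 CPM or more, the library set apart on the high side was replicate 1 for 43 genes, replicate 2 for 133, replicate 3 for 106 and replicate 4 for 80, so on that side replicate 4 was not the library most often apart.

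Replicate 4 was high in 8 of its 10. The choroid plexus and meningeal sum reached 593 CPM against 23.8 to 92.4 in the others, and Ttr 523 CPM against 3.84 to 60.9. Rln3 reached 9.52 CPM against 0.669 to 0.949, Neurod6 17.5 against 4.56 to 6.33, and Th 40.4 against 22.3 to 25.1. The pan-neuronal sum reached 18500 CPM against 16318 to 16640, Gnas 3719 against 3447 to 3483 and Ywhaz 3336 against 2838 to 2914. Replicate 4 was low in Tac1, at 114 CPM against 177 to 189.5, and in Magel2, at 10.4 against 17.5 to 18.3.

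Replicate 2 was low in Cic, at 73.4 CPM against 101 to 103. It alone had reads of Avpr2, at 0.0716 CPM, which is 3 reads. Replicate 1 was high in H2-T10, at 19.1 CPM against 0.949 to 1.47, and low in Nr3c2, at 16.1 against 20.9 to 21.4. Replicate 3 was high in Hdc, at 18.6 CPM against 8.24 to 9.98.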

How the results depend on the processing

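Over 47 results, 324 alternatives were computed and 23 moved a value by more than the SD between libraries (for the number of detected genes and the median CV, by more than 1.5 times). Of these, 19 came from leaving Rn45s out of the totals, which raises every level by construction: Avp became 272 CPM, the neuropeptide sum 2958 and the oligodendrocyte sum 3643. The tables hold no mitochondrial rows, so that alternative removed Rn45s alone. The share of the 25 most abundant genes became 8.64% without Rn45s. The Gad2 to Slc17a6 ratio became 0.798 with the longest transcript as the length. Lists without their leading gene were added after the values were seen. Total counts and DESeq2 size factors moved no result past those limits. Of 188 alternatives that left out a replicate (with the same TMM factors) none moved a value past those limits. For means this says nothing on stability, since with 4 libraries leaving 1 out cannot move a mean by over 1 SD. With a replicate left out, the number of detected genes ran from 13590 to 13670 and the median CV from 10.6% to 12.1%. By size, the choroid plexus and meningeal sum fell from 194 to 60.7 CPM without Control replicate 4. No paired analysis was possible because only 1 group was described and no test was run. The tables hold no intervals that separate counting from amplification error, and genes of 1 to 5 CPM had a median CV of 27.2%, which limits statements on Otp, Crh and other low genes.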
